A study of Homo sapiens with 56 samples.

Results

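The serine synthesis and mitochondrial folate genes were described in RNA sequencing of 4 mantle cell lymphoma lines. These are 8 of the 21596 genes in the deposited expression table: PHGDH, PSAT1, PSPH, SHMT1, SHMT2, MTHFD2, MTHFD1L and ALDH1L2. They were chosen by gene symbol, with the knowledge from these same libraries that PSAT1 is nearly absent from the line MINO-VR. The levels of PSAT1 in MINO-VR are therefore given as a description, without a test.

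The data comprised 56 libraries of the established mantle cell lymphoma lines JEKO-1 (15 libraries), Z138 (13), MINO-P (15) and MINO-VR (13); the labels do not expand the suffixes P and VR. Cells were untreated (CON, 5 libraries) or received BTZ (6), IBR (11), CLF (6), S63845 (6), YM155 (4), BTZ_CLF (4), IBR_CLF (8), BTZ_YM155 (2), IBR_YM155 (2), BTZ_S63845 (1) or IBR_S63845 (1). The codes BTZ, IBR and CLF are used as labelled, without doses or times; YM155 was developed as a suppressant of BIRC5 expression, and S63845 inhibits MCL-1. Each combination of line and treatment held 1 to 3 libraries, and 22 of the 37 combinations held 1. Library names fall into an HK series (8 libraries, all MINO-P or MINO-VR) and an MCL series (48). Both MINO controls are HK libraries and every MINO library with IBR, YM155 or S63845 is an MCL library. Nothing in the labels says that libraries of a group came from separate cultures, so the spread between them may be technical. The models for treatments and for lines hold no term for a response that differs between lines. Their p-values therefore measure a spread that includes such differences as well as the spread between libraries of a group.

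Serine is built from a glycolytic intermediate in 3 steps. PHGDH oxidises 3-phosphoglycerate, PSAT1 transfers an amino group to the product, and PSPH removes the phosphate. Serine hydroxymethyltransferases then pass a carbon from serine to tetrahydrofolate and leave glycine, SHMT1 in the cytosol and SHMT2 in mitochondria. In mitochondria the carbon is oxidised by MTHFD2 and released as formate by MTHFD1L, or oxidised to carbon dioxide by ALDH1L2; formate feeds the making of purines and thymidylate in the cytosol. Several of these genes are known targets of ATF4, the transcription factor of the amino acid response.

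Levels are given as nuclear CPM, that is CPM recomputed over the genes outside the mitochondrial genome. This scale was used because mitochondrial transcripts took 1.91 to 80.5% of a library (median 6.69%), with 6 JEKO-1 libraries above 50%: replicates 1 and 2 of BTZ, of BTZ_CLF and of IBR_CLF. The depth recovered from the deposited values was about 5520000 to 21620000 reads per library. JEKO-1 BTZ replicate 3 stood apart, with a correlation across genes of 0.818 to its nearest library. In 3 of 56 libraries the nearest library belonged to another line, in each case MINO-P against MINO-VR. The B-cell markers CD79A and MS4A1 and the mantle cell lymphoma marker CCND1 were present in all lines, whereas CD5, which mantle cell lymphoma usually carries, had a median of 0 in Z138. Of 10 markers of other cell types, 3 or 4 had a median of at least 1 nuclear CPM in a line. These were EPCAM, COL1A1 and PECAM1 in all 4 lines, with LYZ in MINO-VR and KRT8 in JEKO-1. The highest medians were those of COL1A1 in Z138 (45.91) and PECAM1 in JEKO-1 (21.98). The summed level of the 10 markers ranged over 8.83 to 31.7 in MINO-P and 11.2 to 74.3 in MINO-VR. It ranged over 18.9 to 108 in JEKO-1 and 14.7 to 82.1 in Z138. The T-cell markers CD3E and CD3D had medians of 0 to 0.19 and 0 to 0.065 in the 4 lines. CD3E was at or under 0.743 in every library, and CD3D reached 4.13 in JEKO-1.

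Sequence upstream of the gene start was read for the genes whose differences are described next. RefSeq windows on GRCh38.p14, from 250 bases before to 50 after each start, matched 5 of the 8 genes (PHGDH, PSAT1, SHMT1, MTHFD2 and MTHFD1L); PSPH, SHMT2 and ALDH1L2 were not matched. The 250 upstream bases are shown 5′ to 3′ on the strand of the gene. Capitals mark matches to the CCAAT box, to the E-box with the letters CACGTG, and to the composite element of C/EBP and ATF factors with the letters TGATGNAA. All were searched on both strands, so a CCAAT box on the strand opposite to the one shown reads as its reverse complement, ATTGG. PSAT1 is shown for its loss in MINO-VR, PHGDH and SHMT1 for their fall under BTZ, and MTHFD1L for its fall under IBR.
PSAT1, chr9:78296875-78297124, plus strand: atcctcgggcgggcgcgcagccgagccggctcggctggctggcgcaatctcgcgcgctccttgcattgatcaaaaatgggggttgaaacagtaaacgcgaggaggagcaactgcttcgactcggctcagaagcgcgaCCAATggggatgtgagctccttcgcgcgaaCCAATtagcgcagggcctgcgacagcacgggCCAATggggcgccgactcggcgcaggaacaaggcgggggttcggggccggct
PHGDH, chr1:119711684-119711933, plus strand: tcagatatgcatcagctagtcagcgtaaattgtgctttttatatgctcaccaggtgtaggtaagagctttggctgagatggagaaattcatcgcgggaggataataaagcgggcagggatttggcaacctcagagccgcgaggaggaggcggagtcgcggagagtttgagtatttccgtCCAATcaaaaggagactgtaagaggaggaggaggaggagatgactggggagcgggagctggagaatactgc
SHMT1, chr17:18363551-18363800, minus strand: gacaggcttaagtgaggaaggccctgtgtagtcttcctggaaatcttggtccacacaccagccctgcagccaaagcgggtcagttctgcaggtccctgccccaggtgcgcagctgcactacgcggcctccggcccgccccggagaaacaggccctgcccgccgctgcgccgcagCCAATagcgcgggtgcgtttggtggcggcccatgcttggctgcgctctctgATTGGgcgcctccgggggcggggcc
MTHFD1L, the first of its 4 listed starts, chr6:150866236-150866485, plus strand: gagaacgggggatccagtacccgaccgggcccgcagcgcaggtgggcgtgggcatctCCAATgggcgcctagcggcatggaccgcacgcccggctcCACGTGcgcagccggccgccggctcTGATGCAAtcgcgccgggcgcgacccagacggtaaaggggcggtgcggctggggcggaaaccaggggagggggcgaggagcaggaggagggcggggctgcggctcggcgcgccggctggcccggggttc
The PSAT1 window of 300 bases held 37 CpG dinucleotides, against 15 for PHGDH, 23 for SHMT1 and 27 for MTHFD2. The window of the printed MTHFD1L start held 40, and the median was 14 over 35116 RefSeq windows of that length. The marked elements upstream of PSAT1 are 3 CCAAT boxes, at positions -113, -83 and -52 from the start; 34.6% of all windows hold that element at least once. From the printed start of MTHFD1L, the composite element lies at -129 and the E-box at -154. From other listed starts they lie at 24 and -1, or at -90 and -115, and the window of the remaining start holds neither. Matches to the composite element and to the E-box occur in 3.62% and 7.26% of windows. The windows of PSAT1, PHGDH and SHMT1 held neither of these letter strings. A match describes the sequence and does not show binding.

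PSAT1, which spans chr9:78297125-78330094 on hg38, was nearly absent from MINO-VR under every treatment. It was at 0 in 8 of the 13 MINO-VR libraries, at 0.0485 nuclear CPM in the control, and at most at 0.287 nuclear CPM, in IBR_CLF replicate 1. The remaining MINO-VR values above 0 were 0.0593 with BTZ, 0.216 with CLF and 0.265 with BTZ_CLF, each resting on 1 to 5 recovered reads. In MINO-P the level ranged from 23.3 to 154 nuclear CPM (median 98.5, 15 libraries). JEKO-1 had a median of 137 and a range of 58.2 to 473 nuclear CPM (15 libraries), and Z138 a median of 91.6 and a range of 12.5 to 179 (13 libraries). No library of the other lines overlapped with MINO-VR.

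**Figure D1:**
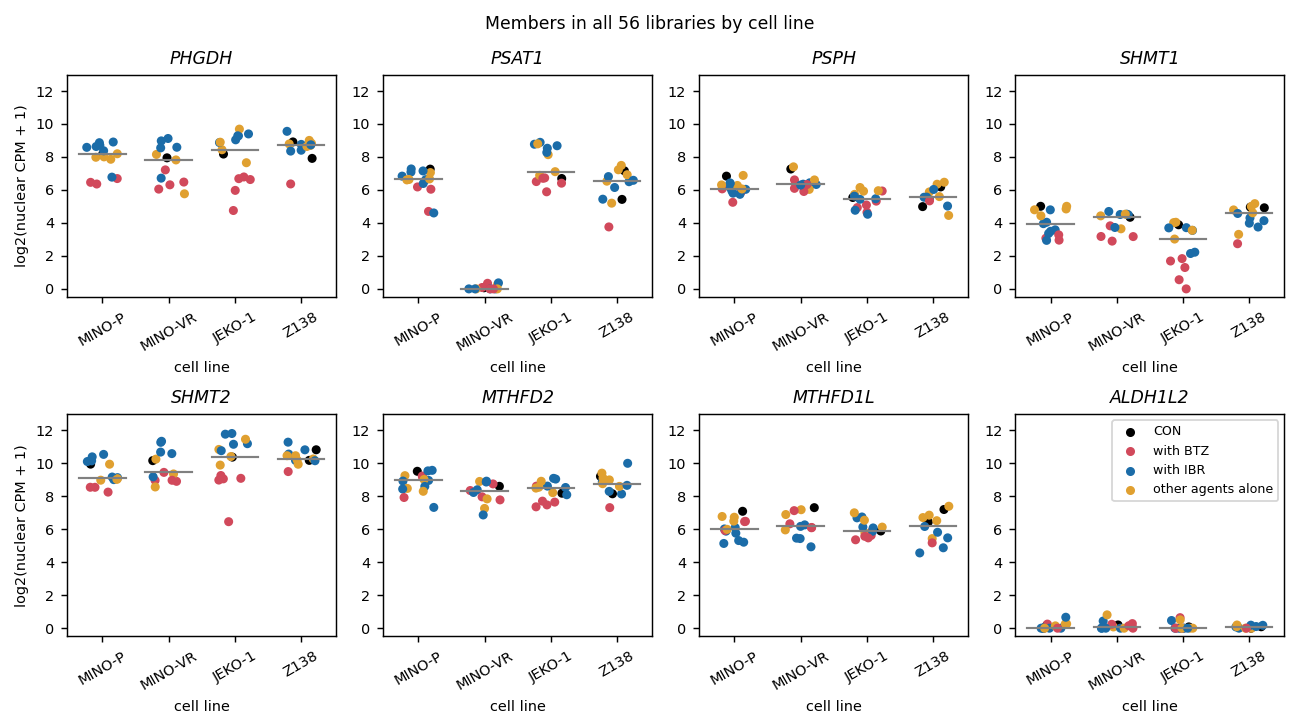
Levels of the 8 genes in all 56 libraries, as log2(nuclear CPM + 1), by cell line; points are libraries coloured by treatment class and grey bars are medians. PSAT1 lies at or near 0 in all 13 MINO-VR libraries, and ALDH1L2 lies under 1 nuclear CPM in every line.

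Over the 9 treatments that MINO-VR and MINO-P share, PSAT1 differed by -6.21 on the log2(nuclear CPM + 1) scale. This was the lowest difference among 16615 genes, of which 1.32% lay below -1. PSAT1 was chosen with its near absence from MINO-VR known, so the rank is a description and tests nothing. The other genes of the same pathway did not share the difference. The difference was -0.26 for PHGDH, 0.36 for PSPH, -0.04 for SHMT1, 0.40 for SHMT2, -0.67 for MTHFD2 and 0.16 for MTHFD1L. On average over the 9 treatments, the steps on either side of PSAT1 in serine synthesis were thus measured in MINO-VR within 1 log2 unit of MINO-P. Single treatments varied around this. PHGDH was at 53.5 nuclear CPM in MINO-VR against 256 in MINO-P with YM155, and at 148 against 87.2 with BTZ.

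The well expressed genes around PSAT1 on chromosome 9 did not share its loss either. The 10 nearest genes that passed the filter on each side, from NMRK1 to KIF27, differed between MINO-VR and MINO-P by -0.51 to 0.63 (median 0.22), and 0 of the 20 lay beyond 1 log2 unit. The nearest on the 5′ side were CEP78, a centrosomal protein, at medians of 19.1 nuclear CPM in MINO-VR and 23.7 in MINO-P, and the pseudogene ASS1P3. The nearest on the 3′ side were the pseudogene CHCHD2P9 and TLE4, a transcriptional corepressor, at 43.8 and 29.7. Only 8 of the 20 reached a median of 10 nuclear CPM in MINO-P, so the neighbourhood is covered by few well expressed genes. A gene under 1 nuclear CPM in MINO-P cannot fall by 1 log2 unit on the log2(nuclear CPM + 1) scale. For such neighbours, among them ASS1P3 (MINO-P median 0.393) and GNA14 (0), the difference cannot show whether they share the loss.

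**Figure D2:**
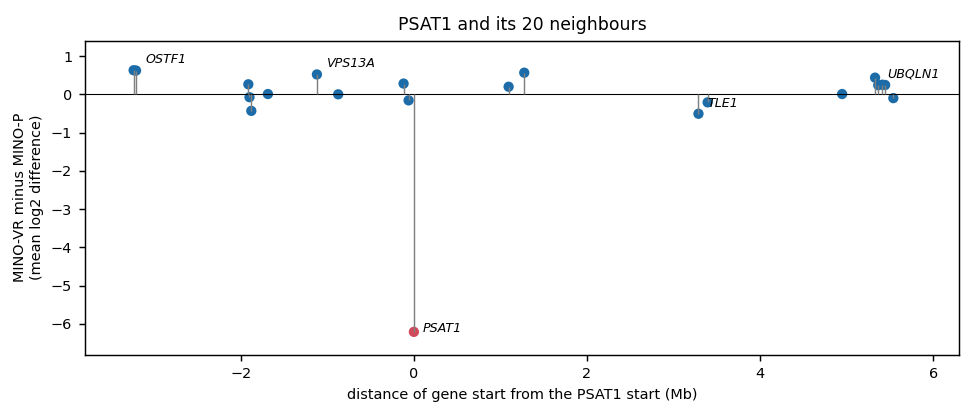
Mean log2 difference between MINO-VR and MINO-P over 9 shared treatments for PSAT1 and the 10 nearest genes on each side, against the distance of each gene's start from that of PSAT1. PSAT1 lies at -6.21 and its neighbours between -0.51 and 0.63.

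The genes whose levels followed PSAT1 most closely over the 37 combinations of line and treatment were CST3 (r = 0.943), OSBPL11 (r = 0.893) and ZNF542P (r = 0.876). These correlations are descriptions over combinations that share lines, and each of the 3 genes is lower in MINO-VR than in the other lines. CST3, the secreted protease inhibitor cystatin C, was at 0 in 10 of 13 MINO-VR libraries and at most 0.319 nuclear CPM there, against medians of 14.8 in MINO-P, 33.5 in JEKO-1 and 33.4 in Z138. The pseudogene ZNF542P was at 0 in 13 of 13 MINO-VR libraries, against medians of 2.72, 3.34 and 3.96. OSBPL11, a lipid transfer protein, was lower but present in MINO-VR, at a median of 19.5 nuclear CPM against 35.3 in MINO-P.

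Among the 3 lines that express it, PSAT1 had its highest level over all treatments in JEKO-1. In controls it was lower in JEKO-1 (103 nuclear CPM) than in MINO-P (153), whose control belongs to the other library series. The Z138 controls had a mean of 92.1. With treatment and library series in the model, PSAT1 was higher in JEKO-1 than in MINO-P by 1.57 log2 units (SE 0.43, limma adjusted p = 0.00617) and lower in Z138 than in JEKO-1 by 1.60 (log2 fold change -1.60, SE 0.34, limma adjusted p = 0.000248). Z138 and MINO-P were not told apart, with a log2 difference of -0.03 and a 95% interval from -0.82 to 0.77. SHMT2 was higher than in MINO-P in both other lines, by 1.31 in JEKO-1 (SE 0.37, limma adjusted p = 0.00815) and by 1.18 in Z138 (SE 0.34, limma adjusted p = 0.00796). Its medians were 559 nuclear CPM in MINO-P, 698 in MINO-VR, 1360 in JEKO-1 and 1229 in Z138, with ranges of 304 to 1488, 378 to 2582, 87.0 to 3583 and 722 to 2489 that overlapped.

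SHMT1, the cytosolic counterpart of SHMT2, was lowest in JEKO-1. Its medians were 7.12 nuclear CPM in JEKO-1, 14.5 in MINO-P, 19.3 in MINO-VR and 22.8 in Z138. It was lower in JEKO-1 than in MINO-P (log2 fold change -0.91, SE 0.33, limma adjusted p = 0.0395) and higher in Z138 than in JEKO-1 (1.09, SE 0.26, limma adjusted p = 0.000937). PHGDH was higher in Z138 than in MINO-P by 0.75 (SE 0.28, limma adjusted p = 0.0454), on medians of 426 and 290 nuclear CPM; this call was lost in 21 of 37 alternative settings. In these 3 comparisons of lines, 3, 2 and 2 of the 7 genes tested passed an adjusted p of 0.05, for JEKO-1 against MINO-P, Z138 against MINO-P and Z138 against JEKO-1. Among all 16477 genes the shares were 27%, 29.4% and 48.3%. PSPH, MTHFD2 and MTHFD1L passed in 0 of the 3. Both calls against MINO-P in Z138 are lost when MCL libraries numbered 20 and above get a term of their own, a setting chosen after seeing the data (SHMT2 0.61, limma adjusted p = 0.219; PHGDH 0.35, limma adjusted p = 0.448). The call of SHMT1 in JEKO-1 against MINO-P is lost in 9 of 35 alternative settings, among them without the samples above 50% mitochondrial reads (-0.78, limma adjusted p = 0.0909), with a pseudocount of 0.25 (-1.06, limma adjusted p = 0.0734), with array weights and without any of 6 single samples (limma adjusted p up to 0.132, without MINO-P YM155 replicate 1). The call of SHMT2 in the same comparison is lost in 1 of 35, on the CPM as deposited (1.04, limma adjusted p = 0.0565).

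Between genes, levels can be compared only per length of transcript. Per kilobase of the main GENCODE transcript, SHMT2 was highest in every line, at medians of 536 nuclear CPM per kb in JEKO-1, 484 in Z138, 275 in MINO-VR and 221 in MINO-P. PHGDH followed at 87.1 to 165 and MTHFD2 at 72.9 to 112. PHGDH was the higher of them in every line, though barely so in MINO-P (112.2 against 111.7). PSPH (19.9 to 36.5) and MTHFD1L (16.4 to 19.7) were lower, and SHMT1 lay at 2.89 to 9.26. PSAT1 stood at 45.0 in MINO-P, 62.6 in JEKO-1 and 41.9 in Z138. ALDH1L2 was barely detected: it was at 0 in 31 of 56 libraries and reached 0.751 nuclear CPM at most, below the filter of 1 nuclear CPM in 2 samples, so 7 of the 8 genes were tested.

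BTZ lowered both serine hydroxymethyltransferases and the first enzyme of serine synthesis. SHMT1 fell by 2.14 log2 units relative to control, PHGDH fell by 2.01 and SHMT2 fell by 1.72, and each was lower in 4 of 4 lines. The remaining 4 genes tested did not pass. In all, 3 of the 7 passed, each lower, against 17.1% of 16615 genes called in this comparison. How many of all genes are lower in 4 of 4 lines was not counted. Nor was it counted how many have every BTZ library below every control, as described next for these 3 genes. In bulk RNA, fewer cells of a type and less RNA per cell cannot be told apart. In every line the BTZ libraries (5 samples) and the controls (5 samples) come from the same library series.

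For SHMT1, the controls were at 31.2 nuclear CPM in MINO-P, 19.3 in MINO-VR, 13.8 in JEKO-1 and 29.2 and 30.1 in Z138. With BTZ it was at 6.76 in MINO-P, 13.2 in MINO-VR, 5.67 in Z138, and 2.57, 2.23 and 0 in JEKO-1. The values of JEKO-1 replicates 1 and 2 rest on few reads, since 3 reads there correspond to 1.29 and 1.67 nuclear CPM. Every BTZ library lay below every control, by the narrowest margin between MINO-VR with BTZ and the JEKO-1 control. The log2 fold change was -2.14 (SE 0.38, limma adjusted p = 0.000203).

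PHGDH in controls was at 290 nuclear CPM in MINO-P, 246 in MINO-VR, 289 in JEKO-1 and 481 and 240 in Z138. With BTZ it was at 87.2 in MINO-P, 148 in MINO-VR, 81.4 in Z138, and 98.1, 61.8 and 26.0 in JEKO-1. The 6 BTZ libraries did not overlap with the 5 controls, and the smallest difference was in MINO-VR, at -0.73 log2 units. The log2 fold change was -2.01 (SE 0.44, limma adjusted p = 0.00145).

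SHMT2 in controls was at 987 nuclear CPM in MINO-P, 1144 in MINO-VR, 1327 in JEKO-1 and 1807 and 1158 in Z138. With BTZ it was at 372 in MINO-P, 698 in MINO-VR, 722 in Z138, and 543, 532 and 87.0 in JEKO-1. All BTZ values lay below all control values. The log2 fold change was -1.72 (SE 0.42, limma adjusted p = 0.00437). JEKO-1 BTZ replicate 3, the library that stood apart, was lowest for all 3 genes. Without it the log2 fold changes were -1.77 for SHMT1, -1.63 for PHGDH and -1.15 for SHMT2, all with limma adjusted p of at most 0.0142. Without the whole line JEKO-1, SHMT2 no longer passed (log2 fold change -1.05, limma adjusted p = 0.0533).

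**Figure D3:**
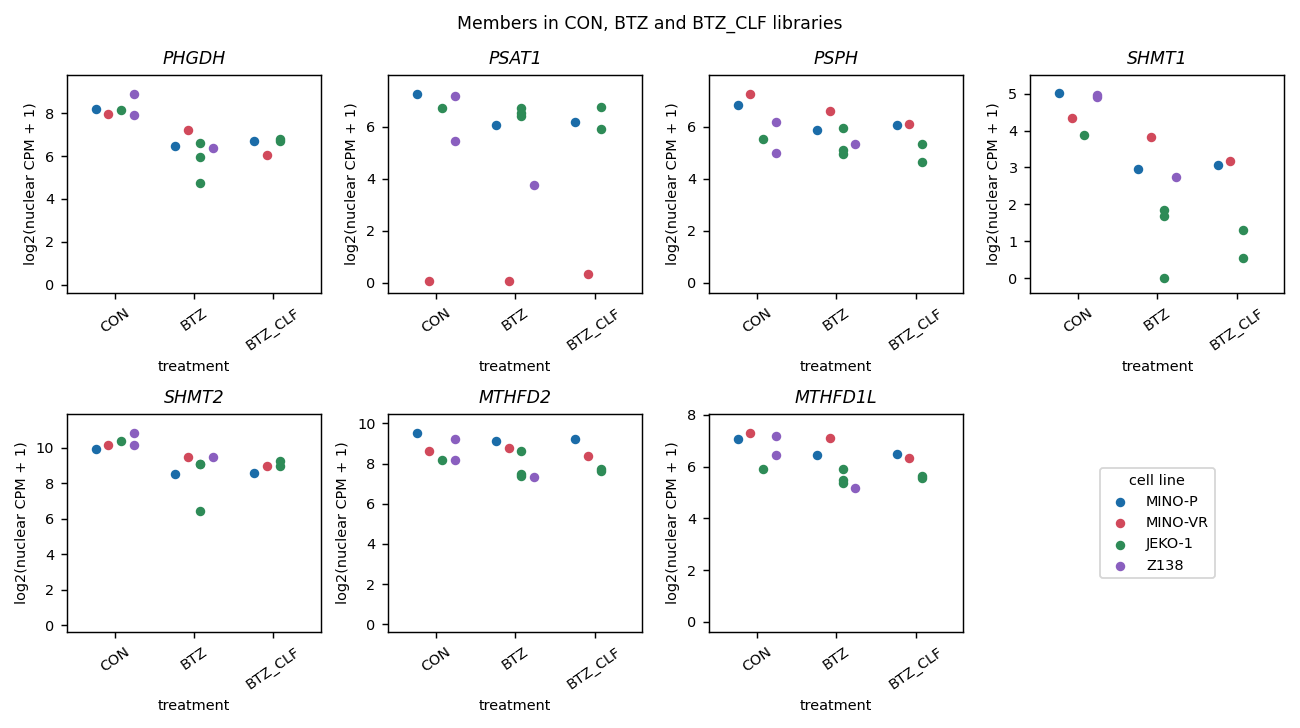
Levels of the 7 genes tested in CON, BTZ and BTZ_CLF libraries, as log2(nuclear CPM + 1); points are libraries coloured by cell line. PHGDH and SHMT2 lie lower in every BTZ library than in every control, while MTHFD2 and PSPH overlap.

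The formate-releasing enzyme MTHFD1L was lower with BTZ in 4 of 4 lines, by 0.84 log2 units, and did not pass (log2 fold change -0.84, SE 0.33, limma adjusted p = 0.0747). Over all lines PSAT1 did not pass either (log2 difference -1.02, SE 0.47, limma adjusted p = 0.132), nor without MINO-VR, where it is at or near 0 (-1.30, limma adjusted p = 0.133). In Z138 it went from 142 and 42.0 nuclear CPM in controls to 12.5 with BTZ, and in MINO-P from 153 to 65.0. In JEKO-1 the groups overlapped, at 103 in the control and 90.0, 84.1 and 104 with BTZ (log2 difference -0.11). MTHFD2 (-0.45, 95% interval -1.13 to 0.23) and PSPH (-0.41, 95% interval -0.95 to 0.12) did not pass. Between BTZ_CLF and BTZ alone no gene was called: 0 of 7 genes and 0% of all genes passed by limma, with 0 of the 7 and 539 of all genes at an unadjusted p under 0.05.

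Combinations that contain BTZ held low values of PHGDH and SHMT2 as well. With BTZ_CLF, PHGDH was at 102 nuclear CPM in MINO-P, 65.3 in MINO-VR, and 102 and 109 in JEKO-1 (replicates 1 and 2). With BTZ_YM155 it was at 81.1 in MINO-P and 88.2 in MINO-VR, and with BTZ_S63845 at 78.4 in MINO-VR. SHMT2 was at 304 nuclear CPM in MINO-P with BTZ_YM155, the lowest value of that line, and at 478 and 500.5 in MINO-VR with BTZ_YM155 and BTZ_S63845. All of these values lie below the control of their line. In MINO-VR, however, YM155 without BTZ gave lower levels than BTZ_YM155, at 53.5 nuclear CPM for PHGDH and 378 for SHMT2. The combinations with YM155 or S63845 were not tested.

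Among all 16615 genes tested for BTZ, 2158 were called lower and 675 higher, 17.1% in all, and the counts of the wider lists stand beside that share with no test of enrichment. Of 22 other one-carbon and folate genes tested, 13 were lower with BTZ and 0 higher, at a median log2 fold change of -1.27 against -0.20 over all genes. They included TYMS, thymidylate synthase (-3.07, limma adjusted p = 9.89e-05), MTHFD1, the cytosolic trifunctional folate enzyme (-2.33, limma adjusted p = 4.12e-05), and the folate carrier SLC19A1 (-2.29, limma adjusted p = 0.00526). Of 30 genes of ATF4 and the amino acid response, 8 were lower and 1 higher (median -0.43). The lower ones included the mitochondrial carboxykinase PCK2 (-2.35), the proline enzyme PYCR1 (-2.21) and CHAC1, a glutathione-degrading enzyme (-2.02); the cystine transporter SLC7A11 was higher (1.90). Of 23 genes of serine and glycine transport and use, 4 were lower and 3 higher (median -0.27): the glycine transporter SLC6A9 (-1.99), the transaminase GPT2 (-1.58), GCAT (-1.45) and PGAM1 (-0.95) against SERINC1 (1.32), SERINC3 (1.02) and SPTLC1 (0.59).

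Of the 7 genes tested, MTHFD1L passed the test for IBR, and it was lower. In controls MTHFD1L was at 135 nuclear CPM in MINO-P, 158 in MINO-VR, 58.5 in JEKO-1 and 146 and 85.6 in Z138. With IBR it was at 34.2, 38.8 and 36.1 in MINO-P, 42.3, 43.0 and 29.6 in MINO-VR, 43.6 and 28.4 in Z138, and 69.4, 58.0 and 66.6 in JEKO-1. In MINO-P, MINO-VR and Z138 the IBR libraries lay below every control of their line, whereas in JEKO-1 they lay around it. The log2 fold change was -1.04 (SE 0.33, limma adjusted p = 0.0423). Thus 1 of 7 genes passed, against 8.16% of all genes. This call is near the threshold: it was lost in 16 of 29 alternative settings, among them without Z138 (-0.25, limma adjusted p = 0.717), without MINO-P (limma adjusted p = 0.184) and on the CPM as deposited (limma adjusted p = 0.0968). For the MINO lines, IBR and control libraries come from different library series.

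Against S63845, where all libraries belong to the MCL series, the same gene was lower with IBR. S63845 libraries held MTHFD1L at 89.1 and 62.7 nuclear CPM in MINO-P, 118 in MINO-VR, 69.0 in JEKO-1, and 115 and 90.7 in Z138. The log2 fold change of IBR against S63845 was -1.10 (SE 0.28, limma adjusted p = 0.0123), and 1 of 7 genes passed against 8.29% of all genes. By line the difference was -1.02 in MINO-P, -1.70 in MINO-VR, -1.51 in Z138 and -0.09 in JEKO-1. The call was lost without MINO-P (limma adjusted p = 0.114) and without MINO-VR (limma adjusted p = 0.172). A test of whether the 4 lines differed in this effect called 0 of 6 genes and 0% of all genes by limma, with 0 of the 6 and 1051 of all genes at an unadjusted p under 0.05, so a difference of JEKO-1 from the other lines was not shown.

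**Figure D4:**
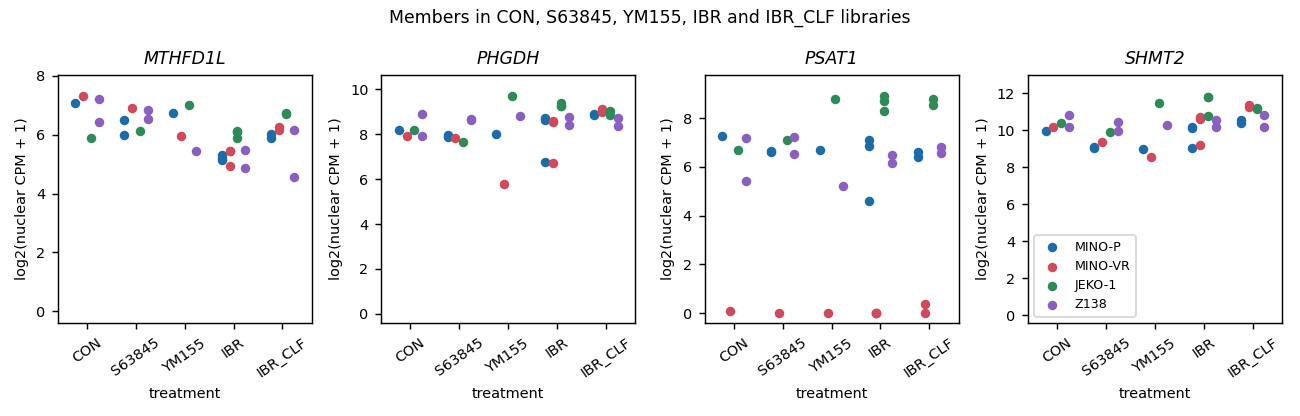
Levels of MTHFD1L, PHGDH, PSAT1 and SHMT2 in CON, S63845, YM155, IBR and IBR_CLF libraries, as log2(nuclear CPM + 1); points are libraries coloured by cell line. MTHFD1L lies lower with IBR than with S63845 in MINO-P, MINO-VR and Z138, and PSAT1, PHGDH and SHMT2 lie high in JEKO-1 with IBR.

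In JEKO-1 with IBR, PSAT1, PHGDH and SHMT2 had high values, and PSPH and SHMT1 did not. PSAT1 was at 410, 473 and 309 nuclear CPM there, against 103 in the control and 137 with S63845. PHGDH was at 621, 674 and 622, against 289 and 200, and SHMT2 at 3480, 3583 and 1739, against 1327 and 949. All 3 genes were higher in each IBR library of JEKO-1 than in its control, which is 1 library. PSPH was at 42.3, 43.3 and 48.3 nuclear CPM there, around its control of 45.6, and SHMT1 at 10.7 to 12.1, below its control of 13.8. The JEKO-1 YM155 library held similar values, with PSAT1 at 443, PHGDH at 825 and SHMT2 at 2813 nuclear CPM, whereas in MINO-VR with YM155 PHGDH was at 53.5 and SHMT2 at 378, below the control of that line. Other JEKO-1 treatments also had means of PSAT1, PHGDH and SHMT2 above that single control. They were 401, 496 and 2305 nuclear CPM with IBR_CLF, and 199, 411 and 1597 with CLF. With BTZ and with BTZ_CLF the JEKO-1 means of these genes were below the control. In Z138 with IBR, PSAT1 was at 70.0 and 89.5 nuclear CPM, between its controls of 142 and 42.0. Over all lines, PSAT1 (0.50, limma adjusted p = 0.577), PHGDH (0.55, limma adjusted p = 0.495) and SHMT2 (0.45, limma adjusted p = 0.577) did not pass for IBR against control. IBR libraries of the MINO lines differed among themselves: in MINO-P, PHGDH was at 396 and 419 in replicates 1 and 2 and at 109 in replicate 3, and in MINO-VR at 374, 384 and 104. SHMT2 and MTHFD2 were lowest in replicate 3 as well, at 515 and 159 nuclear CPM in MINO-P and 578 and 116 in MINO-VR. Whether this comes from the libraries, which carry numbers far apart in the MCL series, was not tested.

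Of all genes tested, 819 were called lower and 536 higher with IBR than in controls (8.16%), and 955 lower and 423 higher than with S63845 (8.29%). Of the 22 one-carbon and folate genes, 10 were lower and 1 higher with IBR than in controls (median -1.16 against -0.0025 for all genes), and 11 were lower and 0 higher than with S63845 (median -1.07). TYMS (-2.76), MTHFD1 (-2.16) and PFAS, an enzyme of purine synthesis (-2.13), were lower than in controls. Of the 30 genes of ATF4 and the amino acid response, 2 were higher and 1 lower than in controls, a share near that of all genes: PPP1R15A, the stress-induced phosphatase subunit (2.48), and SLC7A11 (2.33) were higher and ALDH18A1, the first enzyme of proline synthesis (-1.11), was lower than in controls. Among the 23 genes of serine and glycine transport and use, SERINC1 (1.05) and SERINC3 (0.76) were higher, and PGAM1 (-0.93) and PGK1 (-0.81), the glycolytic enzymes on either side of 3-phosphoglycerate, were lower. Against S63845, 3 genes of this list were lower, the mitochondrial serine carrier SFXN1 (-1.07), its relative SFXN2 (-1.50) and PGAM1 (-0.79), and 2 were higher, SERINC1 (0.65) and SERINC3 (0.59). BTZ, IBR, YM155, S63845 and CLF share the same 5 control libraries, so their effects against control are not independent of each other.

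**Figure D5:**
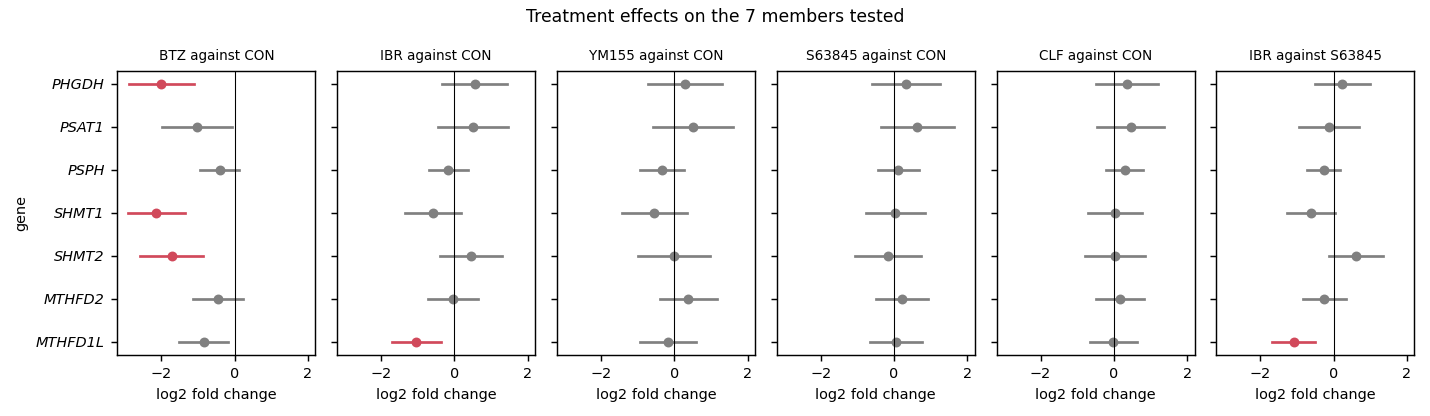
Log2 fold changes of the 7 genes tested in 6 comparisons from limma, with 95% intervals; red marks an adjusted p under 0.05. SHMT1, PHGDH and SHMT2 are red for BTZ at -2.14, -2.01 and -1.72, and MTHFD1L for IBR at -1.04 against control and -1.10 against S63845.

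YM155, S63845 and CLF alone called none of the 7 genes. For YM155 (4 libraries) 0 of 7 genes passed, against 0.53% of all genes, with 0 at an unadjusted p under 0.05; the log2 fold changes ran from -0.54 for SHMT1 to 0.51 for PSAT1. For S63845 (6 libraries) and CLF (6 libraries) limma called 0 of 7 and 0% of all genes, with 0 of 7 at an unadjusted p under 0.05 and 415 and 56 of all genes. With S63845 the widest value was that of PSAT1 (0.63, 95% interval -0.36 to 1.63), and with CLF likewise (0.46, 95% interval -0.45 to 1.37).

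Adding CLF to IBR raised no gene past the threshold: 0 of 7 and 0% of all genes were called between IBR_CLF and IBR by limma, with 1 of 7, MTHFD2, and 674 of all genes at an unadjusted p under 0.05. MTHFD2 had a log2 difference of 0.69 (95% interval 0.08 to 1.30, limma adjusted p = 0.999). It was at 743 and 761 nuclear CPM with IBR_CLF in MINO-P, against 485, 498 and 159 with IBR, and at 465 and 482 in MINO-VR, against 299, 335 and 116. In JEKO-1 it was at 527 and 543, against 391, 369 and 272, whereas in Z138 the groups overlapped, at 404 and 314 against 470.0 and 281 (log2 difference -0.03). MTHFD1L was higher with IBR_CLF than with IBR in 4 of 4 lines, by 0.19 to 1.03 log2 units, without passing (0.53, SE 0.30, limma adjusted p = 0.999). The highest MTHFD2 level of all 56 libraries was 1023 nuclear CPM, in Z138 with IBR_YM155, where PHGDH was at 751 and SHMT2 at 2489. In JEKO-1 the IBR_CLF libraries are among those with over 50% mitochondrial reads.

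Within lines, the genes varied together to different degrees. After each line's mean was removed, PHGDH and SHMT2 had r = 0.911 over 48 samples, PHGDH and SHMT1 0.730, and PHGDH and PSAT1 0.634 (0.720 over the 37 samples without MINO-VR). PSPH and SHMT2 had 0.137, and MTHFD1L and SHMT2 0.204. These are descriptions over samples that share lines, treatments and library series. Over the 37 combinations the genes nearest to PHGDH were GPT2, an alanine transaminase (r = 0.893), SHMT2 (0.872) and EIF4EBP1, a translation repressor (0.848); those nearest to SHMT2 were HAX1 (0.873), PYCR1 (0.872) and PHGDH. MTHFD2 was nearest to ASNS, asparagine synthetase (0.837), then to MTHFD2P7 (0.749) and SSR3 (0.740). MTHFD2P7 is a pseudogene copy of MTHFD2 and could share its reads, at medians of 0.421 to 1.08 nuclear CPM. PSAT1, PSPH and SHMT1 also have pseudogene copies and could lose or gain reads in counting, and the library kit does not mark strand, so reads of antisense genes cannot be told apart.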

How the data were processed

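RNA sequencing libraries of 4 mantle cell lymphoma lines were prepared with poly(A) selection, per the labels' protocols. The authors deposited 1 table of log2 values for 21596 genes and 56 libraries; undoing log2(CPM + 1) gave sums of 999984 to 1000009 per library, so the values are CPM on a log2 scale. Partek and hg38 are named in the submitters' processing notes; the aligner, counter and annotation are not given in the sources used here. No raw counts were used. Depth was recovered from the smallest steps of the values: 75.2 to 87.6% of values came out as whole reads (within 0.02 read), too few for a count test.

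CPM were rescaled to genes outside the mitochondrial genome (15 genes removed) and 1 row without a gene name was left out (at most 0.000773% of a library). In JEKO-1 and both MINO lines, library pairs whose names differ by a final letter alone (8 pairs) were averaged on the log2 scale, since their independence is not shown. Pairs of Z138 libraries named in the same way were kept as separate samples, although their independence is not shown either. This left 48 samples in 37 combinations of line and treatment. Genes with at least 1 nuclear CPM in 2 samples were tested with limma 3.58.1 (R 4.3.3; trended empirical Bayes, pseudocount 1) on treatment, line and library series. Line comparisons used MINO-P, JEKO-1 and Z138, and a further model tested line by treatment for IBR and S63845. P-values were adjusted by Benjamini-Hochberg over all genes tested, at a threshold of 0.05; fold changes are on the log2(nuclear CPM + 1) scale, which understates changes of low genes. The fits were tested on simulated data.

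The genes and the comparison lists were chosen with earlier results of these data known. Named genes were the 8 members, up to 3 called genes with the largest fold change of each list in a comparison, the 3 genes most correlated with PSAT1, PHGDH, SHMT2 and MTHFD2, and the nearest neighbours of PSAT1; PGAM1, SERINC1, SERINC3 and SPTLC1 for BTZ, SERINC3 for IBR against control, and SERINC1 and SERINC3 for IBR against S63845 lie beyond that rule and were named after their values were seen. A gene of the folate list that the rule selects is not reported here.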

Additional observations from a re-analysis of the deposited data

Results flagged for a closer look

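Some genes differed in opposite directions between lines under the same contrast, within 1 library series and in every sample. Replicates 1 and 2 of an averaged pair count as 1 sample here, and Z138 libraries count singly. These differences between lines were not tested. MTHFD1L with IBR against control was higher by 0.15 log2 units in JEKO-1 and had a difference of -1.64 in Z138; of the single JEKO-1 libraries, replicate 2 (58.0 nuclear CPM) lay just below the control (58.5). SHMT1 with CLF against control differed by 0.14 in JEKO-1 and by -0.24 in Z138.

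For IBR_CLF against IBR, PHGDH differed by 1.16 in MINO-P and 1.41 in MINO-VR, and by -0.35 in JEKO-1. SHMT1 differed by 0.46 in MINO-P and by -1.48 in JEKO-1. PSPH differed by -0.46 in MINO-P, 0.046 in MINO-VR, -0.89 in JEKO-1 and 0.30 in Z138. By single libraries, SHMT1 overlapped between the treatments in MINO-P and PSPH in MINO-VR. In the MINO lines the IBR samples lay far apart for PHGDH, with replicate 3 low. Their mean was 258 nuclear CPM (SD 211) in MINO-P and 242 (SD 195) in MINO-VR, against 472 and 528 with IBR_CLF. How far replicate 3 carries the PHGDH differences was not tested. The JEKO-1 IBR_CLF libraries held 60.7 and 59.1% mitochondrial reads, and their part in these differences was not tested. No combination of line and treatment held the 4 libraries needed to look for a single library far from the others of its group.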

How the results depend on the processing

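The counts of genes called among the 7 tested were recomputed under 9 to 16 alternative settings, and with each sample of the groups compared left out in turn. Over all single genes and settings, 2320 of 2394 kept their side of the threshold, 52 lost a call, 22 gained one and 0 reversed. Most of the 2394 are of genes not called as reported, which have no call to lose. Single calls were less stable: PHGDH in Z138 against MINO-P lost its call in 21 of 37 settings. MTHFD1L for IBR against control lost its call in 16 of 29. For IBR against control the count of 1 (MTHFD1L) became 0 on the CPM as deposited, with size factors, with no filter, in JEKO-1 and Z138 alone, and without MINO-P, MINO-VR or Z138. Leaving out single samples gave 0 to 1. For IBR against S63845 the count of 1 became 0 in JEKO-1 and Z138 alone and without MINO-P or MINO-VR, and 2 without JEKO-1, where SHMT1 joined (-0.96). For Z138 against MINO-P the count of 2 became 1 with the library-name suffix as a replicate block over 56 separate libraries, 1 with no filter, 1 without the samples above 50% mitochondrial reads, and 0 with the series term of 3 levels, which was chosen after seeing the data. Leaving out single samples gave 1 to 3 there. For JEKO-1 against MINO-P they gave 2 to 5, with 5 without JEKO-1 BTZ replicate 3, where PHGDH (0.79) and PSPH (-0.64) joined. The replicate block moved no other count among the 7 genes by over 1.5 times, but the count of all genes went from 88 to 208 for YM155 against control, from 0 to 13 for BTZ_CLF against BTZ and from 0 to 18 for line by treatment; the letter is not a replicate number of the labels. For BTZ against control the count of 3 ranged from 2 to 4. Counts of all genes moved more: over the settings other than left-out samples, from 806 to 5371 for BTZ against control (2833 as reported), 24 to 4068 for IBR against control (1355), 0 to 3367 for IBR against S63845 (1378), 0 to 670 for YM155 against control (88), and 0 to 274 for line by treatment (0). The median of all genes for BTZ against control was -0.20 on the nuclear scale, -0.38 on the CPM as deposited and -0.10 with size factors; PHGDH, SHMT1 and SHMT2 passed on all 3. For Z138 against JEKO-1 it was -0.02, 0.25 and 0.01, and PSAT1 and SHMT1 passed on all 3. Depth limits ALDH1L2, PSAT1 in MINO-VR, and SHMT1 in JEKO-1 with BTZ or BTZ_CLF: 3 reads correspond to 0.145 to 2.18 nuclear CPM, depending on the library. The cause of these changes was not tested.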
